A study of Mus musculus with 10 samples.

Results

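Ccl17 and Ccl22 are chemokines of the CC family, Ccr4 is the receptor that binds both, Ccr7 is the receptor for the lymph node chemokines Ccl19 and Ccl21, and Fscn1 (the actin bundling protein fascin) and Cacnb3 (a beta subunit of voltage-gated calcium channels) are commonly read beside Ccr7 and Ccl22 in mature dendritic cells. These 6 genes, of 32245 gene symbols in the matrices, were followed through 5 single-cell RNA libraries from SW1 melanoma tumors in mice. They were picked by name for what is known of them, with earlier results of these data already known, and all 6 were found in every matrix. Each barcode (1 droplet, nominally 1 cell) with at least 500 genes and at most 10% mitochondrial UMIs (molecules counted once) was kept and placed in 1 class. A T cell barcode had at least 2 UMIs of Cd3e, Cd3d and Cd3g together, a macrophage barcode at least 10 of C1qa, C1qb and C1qc together, a tumor barcode at least 1 of Sox10 and 0 of Ptprc, and the remaining barcodes with Ptprc (the gene of CD45) formed the other Ptprc-positive class. Barcodes that met more than 1 of the T cell, macrophage and tumor rules are called mixed, and those that met no rule are called unclassed. No class is a dendritic cell class, so dendritic cells could fall in the other Ptprc-positive, unclassed, mixed or macrophage barcodes.

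Female C3H/HeJ mice aged 4 to 6 weeks received SW1 cells, a mouse melanoma line, under the skin, and tumors grew for 10 days. One pretreatment library was taken at day 0, whose label also reads control, and the other 4 came from tumors after 7 or 21 days of plain drinking water (control) or of water with L-fucose (L-fuc, a sugar that cells attach to glycans), drunk freely. The labels give the L-fuc concentration as 100 mM in one protocol and 100 nM in another, and the group sizes as 5 mice per arm in the first and as 3 pretreatment mice and 6 mice per arm in the second. The cells are labelled as sorted for CD45, yet tumor barcodes were present in every library. Each condition was 1 library, marked as pooled in the names of its deposited files, so no difference between conditions has a replicate check and no p-value is given. All intervals are exact 95% intervals (binomial for shares, Poisson for UMI sums and conditional for ratios) and cover counting error only, not the spread among cells or mice.

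As background, dendritic cells that have taken up antigen and matured raise Ccr7, leave the tissue along Ccl21 and reach the draining lymph node, and fascin supports the extensions and movement of such cells. Mature dendritic cells and alternatively activated macrophages are textbook sources of Ccl17 and Ccl22, which draw T cells that carry Ccr4, among them regulatory T cells and type 2 helper cells. Ccr7 is also the homing receptor of naive and central memory T cells and of B cells, so a Ccr7 UMI alone does not name a dendritic cell.

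Ccl22 and Ccl17 lie near each other on mouse chromosome 8 with Cx3cl1, another chemokine gene, between them, and the windows around their start sites are shown because both ligand genes were found in some of the same barcodes. Fscn1 is shown beside them because most of its UMIs were found in tumor barcodes instead. Each window, from RefSeq on build GRCm38.p6, runs from 250 bases before to 50 bases after an annotated start and is read on the gene's own strand, which is the plus strand for all 3. In genome coordinates the windows are chr8:94745434-94745733 for Ccl22, chr8:94810203-94810502 for Ccl17 and chr5:142960105-142960404 for Fscn1. Capitals mark matches to the searched motifs.
Ccl22: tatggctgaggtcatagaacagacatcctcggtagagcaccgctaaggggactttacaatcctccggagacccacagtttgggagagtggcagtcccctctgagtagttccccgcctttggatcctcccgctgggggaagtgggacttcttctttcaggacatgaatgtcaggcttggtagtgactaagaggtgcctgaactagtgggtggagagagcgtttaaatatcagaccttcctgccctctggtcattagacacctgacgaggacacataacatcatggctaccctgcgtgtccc
Ccl17: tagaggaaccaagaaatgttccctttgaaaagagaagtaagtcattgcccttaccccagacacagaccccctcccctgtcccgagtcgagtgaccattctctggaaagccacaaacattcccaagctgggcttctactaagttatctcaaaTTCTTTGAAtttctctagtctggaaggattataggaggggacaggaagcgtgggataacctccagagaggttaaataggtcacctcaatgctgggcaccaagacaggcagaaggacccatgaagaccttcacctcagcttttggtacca
Fscn1: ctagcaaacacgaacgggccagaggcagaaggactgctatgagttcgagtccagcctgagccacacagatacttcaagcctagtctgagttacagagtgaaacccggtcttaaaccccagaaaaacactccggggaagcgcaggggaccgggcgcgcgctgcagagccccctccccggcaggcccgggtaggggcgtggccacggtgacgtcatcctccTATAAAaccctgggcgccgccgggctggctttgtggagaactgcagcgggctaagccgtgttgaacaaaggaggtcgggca
The motifs, searched on both strands, were the NF-kB consensus (by its name), the STAT motif TTCNNNGAA, the TATA box TATAAA and the AP-1 motif TGANTCA. The Ccl17 window held 1 STAT match, TTCTTTGAA, at position -99 from the start, and the Fscn1 window held TATAAA at position -31. Of 32851 promoter windows of the same length, 8.30% held the STAT motif, 13.6% the TATA box, 7.81% the AP-1 motif and 4.51% the NF-kB consensus. The Ccl22 window and both windows of Cacnb3 held none of these letters, and the Ccr4 window on chromosome 9 held 1 AP-1 match, TGAGTCA, at position -143. Ccr7 has no entry among these windows. A match is a description of the letters and not a measured site.

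The pretreatment library held 1470 kept barcodes, the day 7 libraries 17897 (control) and 9034 (L-fuc), and the day 21 libraries 1573 (control) and 1182 (L-fuc), and wherever 5 values are listed below they follow this order. The kept barcodes carried between 14231519 and 114827373 UMIs per library, with medians of 2890 to 8201 UMIs per barcode. T cell barcodes numbered 393, 968, 1292, 54 and 34, macrophage barcodes 373, 1253, 1503, 767 and 381, other Ptprc-positive barcodes 185, 2953, 1531, 151 and 175, and tumor barcodes 260, 8648, 2820, 471 and 297. The day 21 T cell values therefore rest on 54 and 34 barcodes. The libraries shared 3 to 433 barcode sequences pairwise, the most between both day 7 libraries, where 222 shared sequences were kept. In the control day 7 library 25.1% of T cell barcodes also held the tumor gene Sox10, so tumor transcripts were counted in T cell barcodes of that library.

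Ccl22 was found in few barcodes, and a handful of them held most of its UMIs where it was most abundant. The kept barcodes held 154 Ccl22 UMIs at day 0, 119 in control and 72 in L-fuc at day 7, and 35 in control and 58 in L-fuc at day 21. These lay in 30, 47, 50, 14 and 12 barcodes. At day 0, 4 barcodes with at least 10 Ccl22 UMIs each held 97 of the 154 UMIs (63.0%), in control day 7 a single such barcode held 35 (29.4%), and in L-fuc day 21 a single one held 28 (48.3%). The L-fuc day 7 and control day 21 libraries had no barcode with 10 or more Ccl22 UMIs, and their highest values were 5 and 7.

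By class, Ccl22 was seen most evenly in macrophage barcodes. A Ccl22 UMI was present in 2.95% of macrophage barcodes at day 0 (11 of 373, interval 1.48 to 5.22), in 0.958% in control day 7, 1.33% in L-fuc day 7, 1.56% in control day 21 and 2.10% in L-fuc day 21. Tumor barcodes held Ccl22 in 0 of 260, 6 of 8648, 5 of 2820, 0 of 471 and 0 of 297 barcodes. Their median depth was higher all the same (7394 to 24199 UMIs against 4171 to 8308 in macrophages). The zeros allow shares of up to 1.15%, 0.637% and 1.01%. The macrophage level summed over the class was 4.42, 2.88, 2.50, 4.07 and 2.27 CPM (UMIs of the gene scaled to a common total of the class). The other Ptprc-positive class ranged more widely, with 31.7 CPM at day 0 and 31.4 CPM in L-fuc day 21 against 0.923 and 1.25 CPM at day 7 and no UMI in 151 control day 21 barcodes. At day 0 that class level came from 5 barcodes with 36 UMIs, and in L-fuc day 21 from 3 barcodes with 44 UMIs. In T cell barcodes Ccl22 was present in 3, 8 and 7 barcodes at days 0 and 7 and in none of 54 and 34 at day 21, which allows shares of up to 5.56% and 8.82%.

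Ccl17 was most abundant in the pretreatment library, where a few barcodes held most of its UMIs. The kept barcodes held 219 Ccl17 UMIs at day 0, 92 and 67 in control and L-fuc at day 7, and 12 and 19 at day 21. Of the 219 at day 0, 7 barcodes with at least 10 UMIs each held 158 (72.1%). These 7 barcodes were 3 other Ptprc-positive, 2 macrophage, 1 mixed and 1 unclassed barcode, and all 7 held H2-Aa, an MHC class II gene of antigen presenting cells, with 54 to 280 UMIs. In L-fuc day 21 a single mixed barcode held 11 of the 19 UMIs (57.9%). Ccl17 UMIs were also counted in tumor barcodes, and whether tumor cells made them was not tested. A Ccl17 UMI was present in 3.24% of other Ptprc-positive barcodes at day 0 (interval 1.20 to 6.93), the 3 rich ones included, and in 3.08% of tumor barcodes, with medians of 3702 and 16827 UMIs. By summed level the same classes stood at 75.7 and 2.01 CPM. In control day 21 tumor barcodes held 91.7% of the Ccl17 UMIs, 11 of 12, and none was seen in 767 macrophage and 151 other Ptprc-positive barcodes. In both day 7 libraries the levels were low in every class, at 1.32 and 0.714 CPM in macrophage, 1.19 and 1.25 CPM in other Ptprc-positive and 0.490 and 0.682 CPM in tumor barcodes, from 8 and 6, 14 and 10, and 32 and 27 barcodes. Thinned to 1000 UMIs, Ccl17 was left in at most 4 barcodes of any of these classes at day 7, too few to set the immune classes apart from tumor barcodes.

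The barcodes richest in each ligand gene overlapped only in part. At day 0, 2 barcodes held at least 10 UMIs of both ligand genes, an unclassed barcode with 39 Ccl22 and 18 Ccl17 UMIs and an other Ptprc-positive barcode with 18 Ccl22 and 21 Ccl17 UMIs. Both also held Ccr7 (77 and 212 UMIs), Fscn1 (77 and 100), Cacnb3 (17 and 21) and Il12b (6 and 17), the gene of the subunit shared by interleukins 12 and 23. The barcode with the most Ccl17, 40 UMIs, held no UMI of Ccl22, Ccr7, Fscn1 or Cacnb3 but 99 of H2-Aa. The richest Ccl22 barcode of L-fuc day 21, with 28 UMIs, held 142 Ccr7, 119 Fscn1, 35 Cacnb3, 128 Il12b and 15 Flt3 UMIs, where Flt3 is the growth factor receptor of the dendritic cell lineage. The richest of control day 7, with 35 Ccl22 UMIs, held 99 Ccr7 and 136 Il12b UMIs but 2 of Fscn1 and 0 of Cacnb3. In control day 21 the richest barcode, with 7 Ccl22 UMIs, was a macrophage barcode with 241 C1q UMIs and no UMI of Ccr7, Fscn1 or Cacnb3. Barcodes with much Ccl22 thus differed in what else they held.

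**Figure D1:**
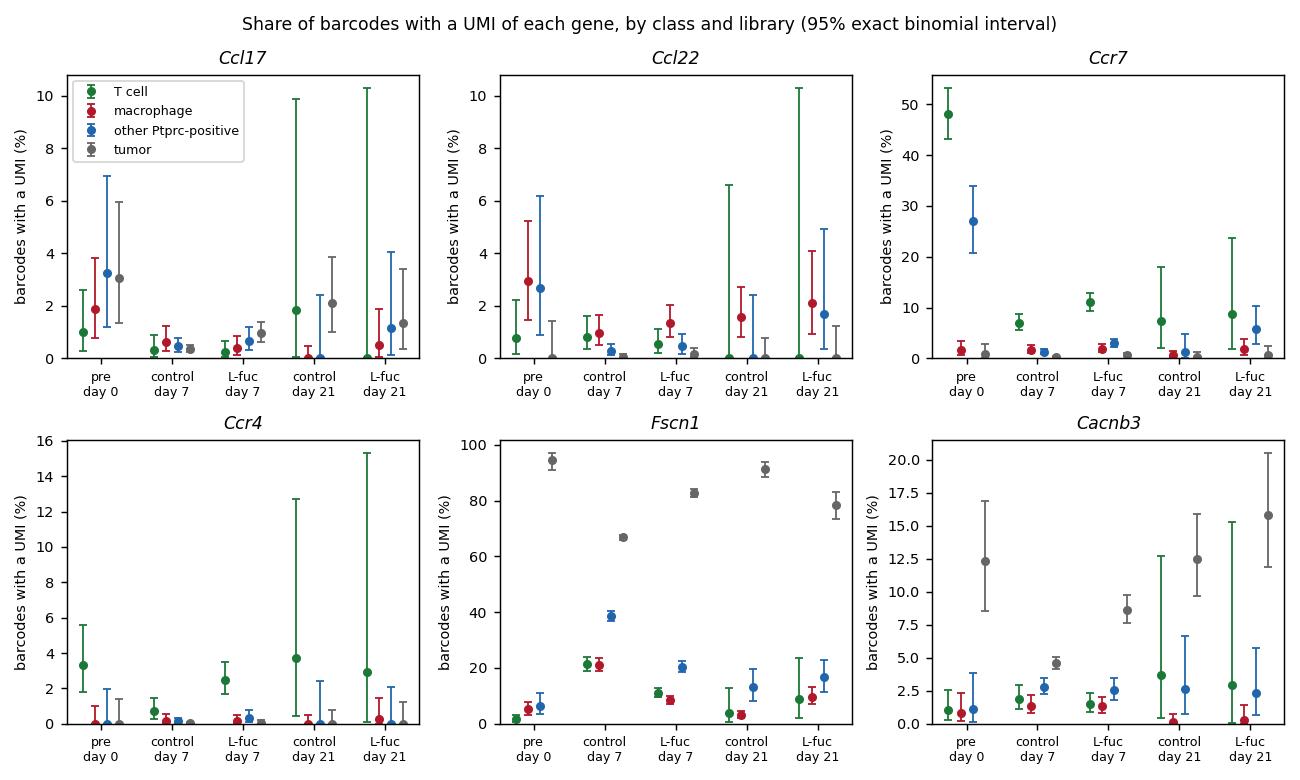
Share of barcodes with at least 1 UMI of each gene (y axis, percent, a separate scale for each gene) in each of the 5 libraries (x axis), with points for T cell, macrophage, other Ptprc-positive and tumor barcodes and bars for the exact 95% binomial interval. Ccr7 and Ccr4 stood highest in T cell barcodes, Fscn1 and Cacnb3 in tumor barcodes, which were the deepest (Cacnb3 did not stand highest there in every library after thinning), and the ligand genes stayed at a few percent or less in every class.

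Over the T cell, macrophage and other Ptprc-positive barcodes of the 5 libraries together, those with Ccl22 more often held the other genes. Among 104 barcodes with Ccl22, 29 held Ccr7 (27.9%, interval 19.5 to 37.5), against 4.97% of those without. Fscn1 was in 36.5% against 19.4%, Cacnb3 in 18.3% (interval 11.4 to 27.1) against 1.67%, and Ccl17 in 7.69% (interval 3.38 to 14.6) against 0.487%. The shares differed by class. In the 63 macrophage barcodes with Ccl22, Ccr7 was in 9.52% against 1.47%, Fscn1 in 19.0% against 10.9% and Cacnb3 in 6.35% against 0.902%. In the 23 other Ptprc-positive ones they were in 60.9% against 2.65%, 69.6% against 30.1% and 43.5% against 2.45%. The receptor gene Ccr4 was in 1 of the 104 (0.962%), against 0.571% of the rest, so ligand and receptor were seldom counted in 1 barcode. Barcodes with Ccl22 were deeper, with a median of 7762 UMIs against 3775. After every barcode was thinned to 1000 UMIs, 28 barcodes kept a Ccl22 UMI, and 35.7% of them held Ccr7 against 1.83% of the rest, 39.3% held Fscn1 against 5.50%, and 17.9% held Cacnb3 against 0.255%.

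In the same classes, the share with Ccr7 was higher in barcodes with Ccl22 in 4 of the 5 libraries, though least so at day 0. Ccr7 was found in 8 of 19 barcodes with Ccl22 at day 0 (42.1%, against 25.4% without), in 6 of 28 in control day 7 (21.4% against 2.37%), in 11 of 34 in L-fuc day 7 (32.4% against 4.80%) and in 4 of 11 in L-fuc day 21 (36.4% against 2.76%). In control day 21 it was found in 0 of 12, and these 12 also held no Fscn1 and no Cacnb3. All 12 were macrophage barcodes. Another 2 barcodes of that library with Ccl22 were unclassed and are outside these counts. Of these, 1 with 4 Ccl22 UMIs held at least 3 of Ccl22, Ccr7, Fscn1 and Cacnb3.

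**Figure D2:**
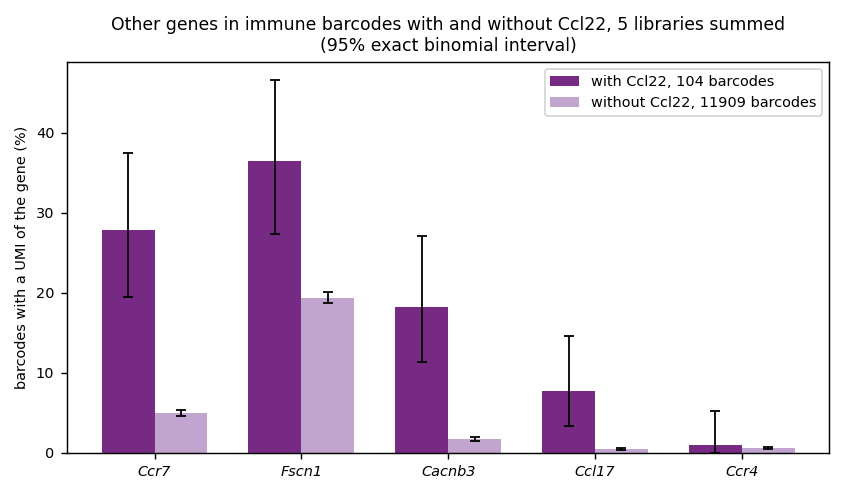
Share of immune barcodes (T cell, macrophage and other Ptprc-positive, 5 libraries summed) with at least 1 UMI of 5 genes (y axis, percent), for the 104 barcodes with Ccl22 (dark bars) and the 11909 without (light bars), with exact 95% binomial intervals. Ccr7, Fscn1, Cacnb3 and Ccl17 were all found in a larger share of barcodes with Ccl22, while Ccr4 was at 0.962% and 0.571%.

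Barcodes that held at least 3 of Ccl22, Ccr7, Fscn1 and Cacnb3 were counted as the closest match to a mature dendritic cell profile, without being a named cell type. There were 18 at day 0, 18 in control day 7, 30 in L-fuc day 7, 3 in control day 21 and 5 in L-fuc day 21, which is 1.22%, 0.101%, 0.332%, 0.191% and 0.423% of the kept barcodes. They held 78.6%, 42.9%, 41.7%, 11.4% and 81.0% of the Ccl22 UMIs of their libraries. Their class labels were scattered over T cell, macrophage, other Ptprc-positive, tumor, mixed and unclassed barcodes. H2-Aa was present in 18, 18, 28, 2 and 5 of them. Other dendritic cell genes were found in fewer, Flt3 in 7, 3, 6, 1 and 3 and Zbtb46 in 4, 3, 4, 1 and 2. Fabp3, a marker of mature dendritic cells, was in 0, 1, 0, 1 and 0. The tumor gene Sox10 was present in 2, 9, 13, 1 and 1. Their median depth, 4222 to 14007 UMIs, was higher than that of all kept barcodes except in control day 21, and the part of doublets and depth in these counts was not tested. All 4 genes together were found in 7, 4, 6, 0 and 3 barcodes.

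The genes highest in these 74 barcodes, against the other Ptprc-positive barcodes not among them, include those that chose them. Beside Ccl22 (log2 ratio 8.77), Ccr7 (6.05) and Cacnb3 (5.49), the highest 10 held Il12b (8.78, in 20 of the 74 barcodes), Bcl2l14 of the Bcl2 family (7.14, in 26), Nostrin (5.93, in 17), the membrane-anchored metalloproteinase Mmp25 (5.86, in 17) and the predicted gene Gm13546 (6.98, in 16). Of the 339 Il12b UMIs, 136 lay in 1 barcode of control day 7 and 128 in 1 barcode of L-fuc day 21. The scavenger receptor Marco (11.12) came from 85 UMIs in 1 barcode and the cytokine Il13 (5.63) from 2 barcodes. Leaving out the 4 genes used to choose the barcodes, 35 of 41 genes of a mature dendritic cell list with enough UMIs were more than 2-fold higher in them, with a median log2 ratio of 2.50, beside 13.5% and 0.04 over all 14861 genes. Il4i1, an amino acid oxidase, stood at 5.32, Ramp3 at 4.77, the inhibitory ligand Pdcd1lg2 at 2.93, the NF-kB subunits Relb and Nfkb2 at 2.74 and 1.66, and Cd83 at 1.88. Of 12 regulatory T cell genes 11 were also more than 2-fold higher (median 2.12), and of 8 naive T cell genes beside Ccr7 0 were higher and 1 lower. By rule the comparison class holds no T cell barcode. Of the 74 barcodes, 3 at day 0, 5 in control day 7 and 8 in L-fuc day 7 were T cell barcodes. The T cell genes Cd3d, Cd3g and Cd3e stood at 4.03, 3.93 and 3.77. The part of T cell barcodes in the regulatory T cell count was not tested. These values describe barcodes chosen by member genes and carry no test.

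Ccr7 was found in T cell barcodes of every library, and its share there was much higher before treatment than later. A Ccr7 UMI was present in 189 of 393 T cell barcodes at day 0 (48.1%, interval 43.1 to 53.2), in 68 of 968 in control day 7 (7.02%, 5.50 to 8.82), in 143 of 1292 in L-fuc day 7 (11.1%, 9.41 to 12.9), in 4 of 54 in control day 21 (7.41%, 2.06 to 17.9) and in 3 of 34 in L-fuc day 21 (8.82%, 1.86 to 23.7). The summed levels were 279, 58.9, 109.8, 43.8 and 65.1 CPM. The day 0 library stood apart from all others, and the intervals of both day 21 libraries overlapped each other and both day 7 values. Thinned to 1000 UMIs, the shares were 18.9%, 3.05%, 3.21%, 1.89% and 3.03%, so the day 0 library still stood highest and both day 7 libraries were nearly equal. Tumor barcodes held Ccr7 in 0.212% to 0.769% of barcodes, which sets the background.

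At day 7 most Ccr7 UMIs of T cell barcodes lay in a small number of barcodes with many UMIs. The L-fuc to control ratio of CPM in T cell barcodes was 1.87 (interval 1.63 to 2.15), and the ratio of the shares was 1.58 (1.17 to 2.14). T cell barcodes with at least 10 Ccr7 UMIs numbered 7 in control, which held 145 of 266 UMIs (54.5%), and 19 in L-fuc, which held 691 of 909 (76.0%). Without these barcodes, which are picked by the gene's own value, the ratio of CPM was 0.996 (0.794 to 1.25), a description and not a test. Barcodes with a single Ccr7 UMI were also a larger share in L-fuc, 84 of 1292 against 35 of 968. At day 0, 8 such barcodes held 236 of 704 UMIs (33.5%), so there most Ccr7 came from barcodes with fewer UMIs each. The ratio of thinned shares was 1.05 (0.639 to 1.76). Without thinning, the ratio of CPM was 2.85 with T cells taken at 1 or more Cd3 UMIs and 1.45 at 4 or more.

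Ccl1, the chemokine that binds Ccr8 and is made by activated T cells, was looked at in these barcodes after its values had been seen. It was present in 3 of 8, 4 of 7 and 15 of 19 T cell barcodes with at least 10 Ccr7 UMIs at day 0 and, at day 7, in control and in L-fuc (37.5%, 57.1% and 78.9%), against 3.92%, 5.67% and 7.31% of T cell barcodes without Ccr7. The former were deeper, with medians of 17660, 13473 and 15060 UMIs against 3736, 2892 and 3887, and the part of depth was not tested. Among all T cell barcodes with Ccr7, Ccl1 was present in 4.76%, 25.0% and 23.1%.

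**Figure D3:**
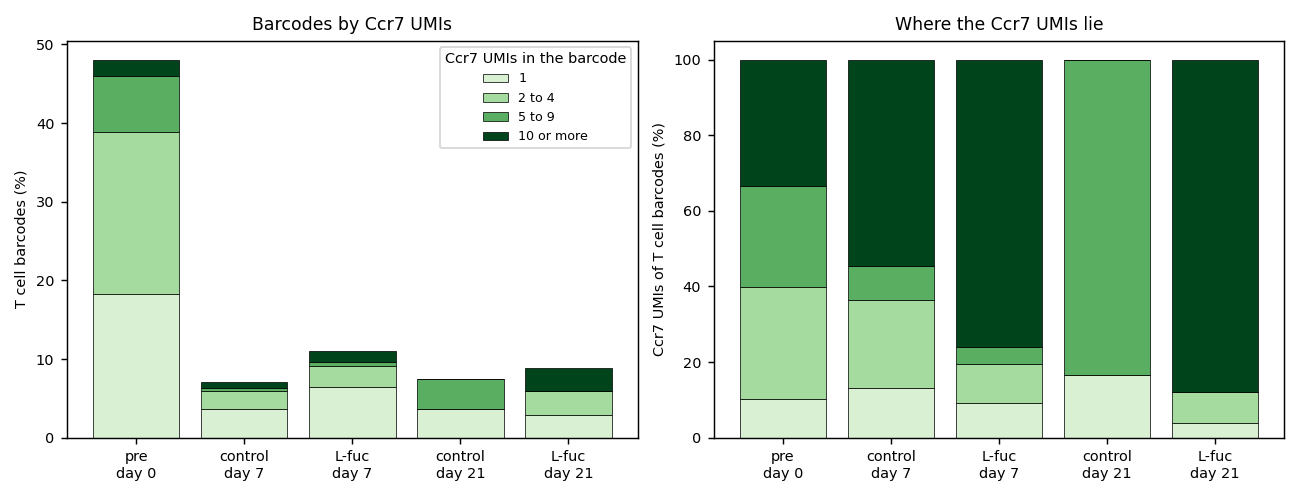
Left, percent of T cell barcodes (y axis) with 1, 2 to 4, 5 to 9 or at least 10 Ccr7 UMIs, stacked, in each library (x axis). Right, percent of the Ccr7 UMIs of T cell barcodes held by barcodes of each size. The day 0 bar reaches 48.1% on the left, and in L-fuc day 7 barcodes with at least 10 UMIs held 76.0% of the Ccr7 UMIs on the right.

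Before treatment, Ccr7 was more frequent in T cell barcodes with a single copy of their receptor. T cell receptor libraries from the same tumors gave clonotypes, and a clonotype with at least 2 barcodes in its library is called expanded. No receptor was found for 76 of 393, 442 of 968, 535 of 1292, 13 of 54 and 18 of 34 T cell barcodes. These are in neither group, and Ccr7 was in 35.5% of them at day 0, 3.17% in control day 7 and 9.16% in L-fuc day 7. At day 0, Ccr7 was present in 153 of 246 single barcodes (62.2%, interval 55.8 to 68.3) and in 9 of 71 expanded ones (12.7%, 5.96 to 22.7). Thinned to 1000 UMIs the shares were 24.9% and 2.82%. At day 7 the shares were close, with 11.5% of single and 9.09% of expanded barcodes in control and 14.0% and 10.9% in L-fuc. At day 21 the counts were 2 of 21 and 2 of 20 in control, too few to compare, and L-fuc had 2 of 16 single barcodes and no expanded one.

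The genes found with Ccr7 in T cell barcodes also differed between the libraries. Values are shares after thinning to 1000 UMIs, in barcodes chosen for a Ccr7 UMI before thinning, and are descriptions. At day 0, Klf2, a transcription factor of resting T cells, was in 56.1% of barcodes with Ccr7 and 24.6% of those without, the naive T cell factors Lef1 and Tcf7 in 27.8% against 11.1% and 27.3% against 13.1%, and the egress receptor S1pr1 in 12.3% against 4.02%. The tissue homing receptor Cxcr6 went the other way, at 5.35% against 28.1%, as did the checkpoint receptor Tigit at 4.81% against 18.6%. In control day 7, barcodes with Ccr7 held more of the regulatory T cell genes Tnfrsf18 (31.3% against 9.38%), Foxp3 (13.4% against 3.50%) and Ccr8 (11.9% against 1.81%). In L-fuc day 7, Tnfrsf18 was at 23.8% against 15.8% and Ccr8 at 8.39% against 3.44%, while Klf2 was at 18.2% against 19.8% and Lef1 at 2.10% against 4.94%. Without thinning, Foxp3 was in 6.88% of day 0 barcodes with Ccr7, against 15.7% of those without. The same shares were 19.1% against 9.78% in control day 7 and 13.3% against 7.92% in L-fuc day 7. Not every gene is given for every library.

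Within T cell barcodes of days 0 and 7, Ccr7 was found in every subset defined by Foxp3, Cd4 or Cd8 UMIs. At day 0 it was in 13 of 45 Foxp3 barcodes (28.9%), 47 of 107 Cd8 barcodes (43.9%) and 48 of 91 Cd4 barcodes without Foxp3 (52.7%). In control day 7 the shares were 12.9%, 4.97% and 14.5%, and in L-fuc day 7 17.3%, 7.30% and 17.4%. The Cd4 barcodes of L-fuc day 7 held 536 Ccr7 UMIs in 258 barcodes (298 CPM), against 38 UMIs in 83 barcodes in control (95.7 CPM). The Cd8 barcodes went the other way by CPM, with 52 UMIs in L-fuc (22.1 CPM) against 106 in control (71.4 CPM). The Cd4 barcodes were 258 of 1292 T cell barcodes in L-fuc day 7 and 83 of 968 (8.57%) in control, while Cd8 barcodes made up 27.6% and 35.3%.

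Outside T cells, Ccr7 at day 0 was found both in many B cell barcodes with few UMIs each and in a few other barcodes with many. In the other Ptprc-positive class it was present in 50 of 185 barcodes at day 0 (27.0%), 39 of 2953 in control day 7 (1.32%), 45 of 1531 in L-fuc day 7 (2.94%), 2 of 151 in control day 21 and 10 of 175 in L-fuc day 21. Of the 50 at day 0, 42 were among the 89 barcodes with at least 2 UMIs of the B cell genes Cd79a, Cd79b and Ms4a1 (47.2%). These 42 held 88 of the 393 UMIs, and the remaining 8 held 305, 212 of them in 1 barcode. A further 164 Ccr7 UMIs of that library lay in unclassed and 134 in mixed barcodes. In macrophage barcodes Ccr7 was present in 6, 21, 29, 5 and 7 barcodes. The L-fuc to control ratio in the other Ptprc-positive class was 1.85 (1.31 to 2.62) at day 7 and 5.75 (3.90 to 8.78) at day 21, the latter from 10 against 2 barcodes with 142 of 231 UMIs in 1 barcode.

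Ccr4, the receptor for both ligands, was scarce, and among the named classes its share was highest in T cell barcodes. It was present in 13 of 393 T cell barcodes at day 0 (3.31%, interval 1.77 to 5.59), 7 of 968 in control day 7 (0.723%, 0.291 to 1.48), 32 of 1292 in L-fuc day 7 (2.48%, 1.70 to 3.48), 2 of 54 in control day 21 and 1 of 34 in L-fuc day 21. Macrophage barcodes held it in 0, 2, 2, 0 and 1 barcodes and tumor barcodes in 0, 3, 1, 0 and 0. T cell barcodes held 94.4% of the Ccr4 UMIs at day 0, but 25.8% in control day 7 and 53.4% in L-fuc day 7, where mixed barcodes held 29.0% and 32.9%. At day 7 the L-fuc to control ratio in T cell barcodes was 2.66 (1.23 to 6.59) by CPM, from 39 and 8 UMIs, and 3.43 (1.48 to 9.19) by share, and thinned to 1000 UMIs Ccr4 was left in 5 of 1277 barcodes and in 0 of 952. The control interval and the L-fuc interval did not overlap, while the day 0 share overlapped that of L-fuc day 7.

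In L-fuc day 7, Ccr4 was more frequent in T cell barcodes with Foxp3, the regulatory T cell factor. It was present in 10 of 110 Foxp3 barcodes (9.09%, interval 4.45 to 16.1), against 1 of 101 in control day 7 (0.990%) and 2 of 45 at day 0 (4.44%). Seen from the other side, 10 of the 32 barcodes with Ccr4 held Foxp3 (31.2%, with a lower bound of 16.1), against 7.94% of those without, and 10 of 32 held Ccr8 against 12.5%. Barcodes with Ccr4 were deeper, at a median of 7594 against 4032 UMIs, and thinned to 1000 UMIs the Foxp3 share with Ccr4 was 2.73%. In the same library Ccr4 was in 19 of 364 single (5.22%) and 5 of 393 expanded (1.27%) barcodes.

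Most Fscn1 UMIs of these libraries lay in tumor barcodes, although barcodes rich in Ccl22 and Ccr7 also held many. Tumor barcodes held 73.3%, 70.4%, 76.3%, 90.7% and 75.8% of its UMIs. It was present in 246 of 260 tumor barcodes at day 0 (94.6%), 66.8% in control day 7, 82.8% in L-fuc day 7, 91.3% in control day 21 and 78.5% in L-fuc day 21, at 389, 203, 247, 372 and 311 CPM. Median tumor depth differed with these shares, from 7394 UMIs in control day 7 to 24199 in L-fuc day 21, and thinned to 1000 UMIs the shares were 38.1%, 16.7%, 560 of 2800, 30.1% and 20.5%, in the same order of libraries by size as the CPM. Day 0 and control day 21 therefore stood highest by both measures. The L-fuc to control ratio in tumor barcodes was 1.22 (1.19 to 1.25) at day 7 and 0.835 (0.793 to 0.880) at day 21.

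In T cell and macrophage barcodes the level of Fscn1 at day 7 moved with that of the tumor genes S100b and Sparc. Fscn1 was present in 1.53% of T cell barcodes at day 0, 21.4% in control day 7, 11.1% in L-fuc day 7, 3.70% in control day 21 and 8.82% in L-fuc day 21. Its CPM in T cell barcodes was 1.12%, 44.9%, 19.4%, 2.95% and 3.35% of that in tumor barcodes. The same percentages were 0, 48.3, 21.2, 0 and 0 for S100b, a gene of neural crest derived cells, and 0.0816, 41.6, 16.2, 0.684 and 0.520 for the matrix gene Sparc. In macrophage barcodes they were 4.23, 29.3, 12.6, 2.22 and 7.64 for Fscn1, 16.6, 24.6, 14.8, 2.53 and 11.6 for S100b, and 0.823, 24.4, 10.6, 2.01 and 4.99 for Sparc. At day 7 the Fscn1 percentage thus lay between or within 5 percentage points of those of S100b and Sparc in both classes. The L-fuc to control ratio of Fscn1 was 0.526 at day 7 in T cell barcodes (0.457 to 0.605) and in macrophage barcodes (0.457 to 0.604), and 2.87 (2.11 to 3.95) in macrophage barcodes at day 21. The part of tumor RNA in these ratios was not tested.

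In the other Ptprc-positive class Fscn1 stood above S100b and Sparc at days 0 and 21, but not above every gene of tumor barcodes. Fscn1 was at 37.5%, 87.1%, 51.8%, 39.8% and 62.4% of its tumor CPM, against 1.92%, 86.5%, 54.9%, 23.0% and 5.56% for S100b and 11.2%, 80.8%, 52.9%, 19.6% and 10.8% for Sparc. Mitf, the melanocyte factor that macrophages and mast cells also use, was at 78.7%, 97.7%, 66.3%, 80.2% and 54.1%, above Fscn1 except in L-fuc day 21. At day 0, 100 of the class's 166 Fscn1 UMIs, and in L-fuc day 21, 119 of 272, lay in 1 barcode, each of which was rich in Ccl22 and Ccr7 as given above. The ratio at day 21, 1.31 (1.07 to 1.61), was 0.959 without the single richest barcode.

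**Figure D4:**
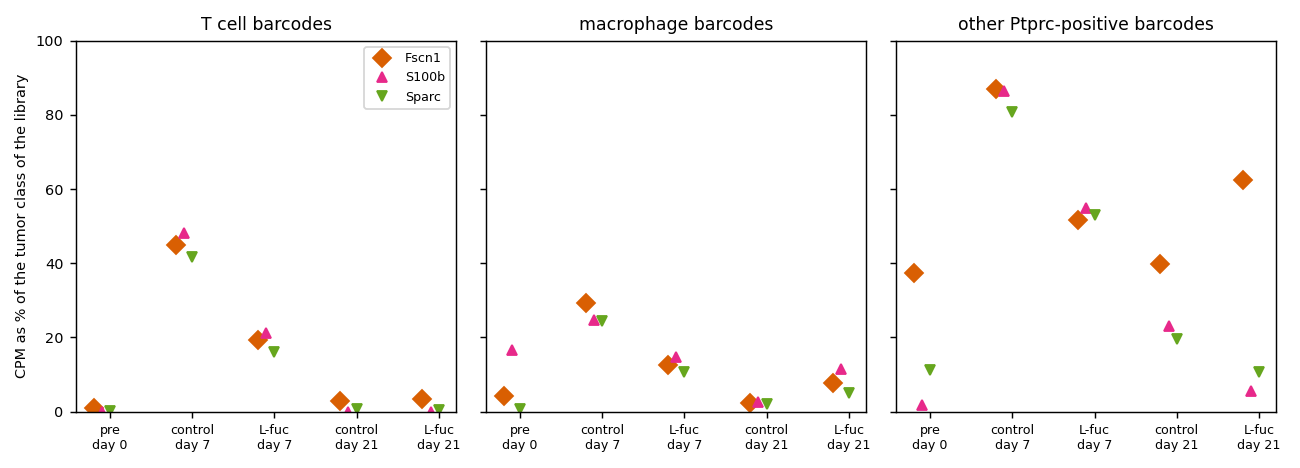
CPM of Fscn1 and of 2 genes of tumor barcodes (S100b and Sparc) in T cell, macrophage and other Ptprc-positive barcodes, as a percentage of the CPM in tumor barcodes of the same library (y axis), for the 5 libraries (x axis). At day 7 Fscn1 lies within a few percentage points of at least 1 of these genes in all 3 classes, and in other Ptprc-positive barcodes it lies above them at day 0 (37.5%) and in both day 21 libraries (39.8% and 62.4%).

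Cacnb3 was thinly spread over all classes, and its share was highest in tumor barcodes, which were also the deepest. It was present in 32 of 260 tumor barcodes at day 0 (12.3%), 4.57% in control day 7, 8.65% in L-fuc day 7, 12.5% in control day 21 and 15.8% in L-fuc day 21. The tumor CPM varied little, at 8.95, 6.23, 6.79, 6.61 and 7.88, and the ratio was 1.09 (0.935 to 1.27) at day 7 and 1.19 (0.824 to 1.72) at day 21. By CPM the other Ptprc-positive class stood higher than tumor barcodes at day 0 (19.4) and at day 21 (12.8 in control and 31.4 in L-fuc). Thinned to 1000 UMIs, tumor barcodes did not stand highest in every library, with 0.568% in control day 7 against 0.630% of T cell barcodes, and 0.707% in L-fuc day 21 against 1.84% of other Ptprc-positive barcodes. T cell shares ran from 1.02% to 3.70%, macrophage shares from 0.130% to 1.36% and other Ptprc-positive shares from 1.08% to 2.81%. In the last class 21 of 22 UMIs at day 0 and 35 of 44 in L-fuc day 21 lay in 1 barcode, the same barcodes that held most Fscn1. Over all immune barcodes, 72.0% of the 218 with Cacnb3 held Fscn1 against 18.6% of the rest, and 18.8% held Ccr7 against 4.92%. Barcodes with Cacnb3 were deeper, at a median of 10958 against 3729 UMIs, and thinned to 1000 UMIs the shares were 25.7% against 5.52% for Fscn1 and 34.3% against 1.81% for Ccr7.

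The members past a 2-fold difference between L-fuc and control were counted in each class, beside the share over all genes. A gene was compared where both libraries together held at least 10 UMIs in the class, and it was counted as higher or lower where its CPM, with 1 UMI added, differed by more than 2-fold. In T cell barcodes at day 7 all 6 members were compared, 1 (Ccr4) was higher and 1 (Ccl22) lower, beside 14.2% of all genes past 2-fold in either direction. In macrophage barcodes 0 of 5 members passed, beside 13.0%, and in other Ptprc-positive barcodes 1 of 6 (Ccr4, from 7 and 5 UMIs) was higher, beside 14.3%. At day 21 the counts were 0 of 1 in T cell barcodes beside 25.8%, 1 of 3 in macrophage barcodes (Fscn1, higher) beside 8.31%, and 3 of 4 in other Ptprc-positive barcodes (higher) beside 16.7%. These 3 were Ccl22 (44 UMIs against 0), Ccr7 and Cacnb3, whose L-fuc UMIs lay mostly in 1 barcode. The median log2 ratio over all genes was between -0.30 and 0.04. With median of ratios scaling, the share of higher genes among those past 2-fold moved from 25.8% to 39.5% in T cell barcodes and from 19.0% to 33.9% in macrophage barcodes at day 7, and from 33.5% to 54.3% in T cell and from 21.0% to 44.0% in other Ptprc-positive barcodes at day 21.

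**Figure D5:**
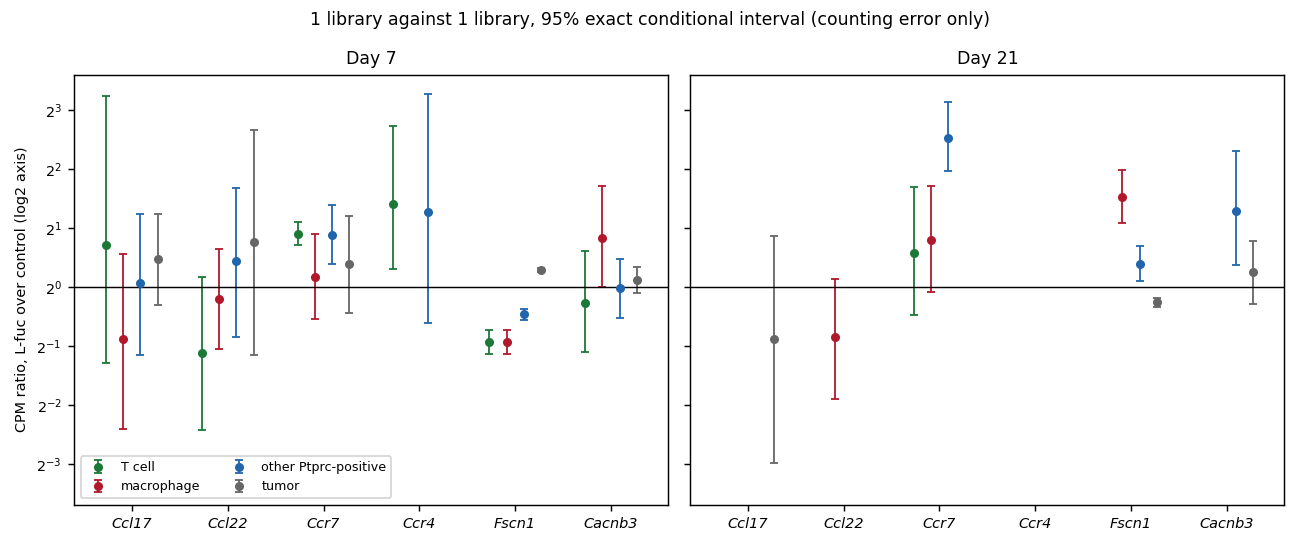
Ratio of CPM, L-fuc over control (y axis, log2 scale), for the 6 genes (x axis) at day 7 (left) and day 21 (right) in 4 classes of barcodes, with exact conditional 95% intervals. Genes with fewer than 10 UMIs over both libraries, or with 0 in 1 of them, are not drawn. Ccr7 in T cells at day 7 lies at 1.87, and Fscn1 in macrophages lies at 0.526 at day 7 and at 2.87 at day 21.

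Other genes of the same pathways were read from lists in the same way. In other Ptprc-positive barcodes at day 7 the calls over all genes leaned to L-fuc, with 1535 of 14402 genes higher and 530 lower. Of 44 mature dendritic cell genes in other Ptprc-positive barcodes at day 7, 16 were higher and 2 lower in L-fuc (median log2 ratio 0.61, against -0.12 over all genes), and of 17 chemokine receptor genes 9 were higher and 0 lower (median 1.10), among them Ccr1 and Ccr2, receptors of monocytes and macrophages, at ratios of 3.24 and 2.17. In T cell barcodes at day 7, where 499 of 13607 genes were higher and 1437 lower, 4 of 42 mature dendritic cell genes were higher and 2 lower, a share past 2-fold close to the 14.2% of all genes, and of 12 regulatory T cell genes 1 was higher and 0 lower (median 0.66). None of 10 naive and memory T cell genes (median 0.48) and none of 12 NF-kB and Irf4 regulators passed 2-fold there. In macrophage barcodes at day 7, where 334 of 13460 genes were higher and 1420 lower, 4 of 12 T cell attracting chemokines were higher and 1 lower, with the interferon-induced Cxcl9 at a ratio of 2.54 and Ccl5 at 2.08. At day 21 in T cell barcodes, where 608 of 7021 genes were higher and 1205 lower, 3 of 4 such chemokines were lower, Ccl1 with 1 UMI in L-fuc against 315 in control and Ccl5 at a ratio of 0.0503, and 7 of 12 regulatory T cell genes were lower and 1 higher, from 34 and 54 barcodes. Of 3 calcium channel beta subunit genes with enough UMIs in other Ptprc-positive barcodes at day 7, none passed 2-fold.

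The genes with the most similar level pattern were found by correlating log CPM over 20 points, the 4 classes in each of the 5 libraries, among 15194 genes. Points share their library, depth and carried-over RNA, and the values are descriptions. Ccr4 was closest to the T cell receptor segments Trav5-4 (r = 0.980), Trav9-2 (0.977) and Trbv20 (0.974) and to Cd40lg (0.972), the T cell ligand of CD40. Ccr7 was closest to Trp53i11 (0.959), Cd55 (0.939) and Hsh2d (0.928). Fscn1 was closest to Dbn1, the actin binding protein drebrin (0.969), and Nudt17 (0.955). Cacnb3 was closest to Mycbp (0.932), Ccl17 to Plet1 (0.945), and Ccl22 to the antibody segment Igkv3-10 (0.929) and to Gcsam (0.904). Among the members, Ccl17 and Ccl22 correlated at 0.65, Ccl22 with Ccr7 and with Cacnb3 each at 0.58, Ccr7 with Ccr4 at 0.56, Fscn1 with Cacnb3 at 0.52, and Ccr4 with Fscn1 at -0.61. In the other Ptprc-positive class, Ccl22 reached 31.7 CPM at day 0 and 31.4 CPM in L-fuc day 21, from 5 and 3 barcodes. At the other points it stayed at or below 4.42 CPM. Ccl17 reached 75.7 CPM in that class at day 0, from 6 barcodes, and at most 12.0 CPM elsewhere. The highest Cacnb3 points, 19.4 and 31.4 CPM, each lay mostly in 1 barcode. Correlations of these genes therefore rest on few points.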

How the data were processed

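The gene expression matrices hold raw UMI counts per gene and barcode, deposited by the authors as Cell Ranger output with no normalization. The submitters' processing notes name Cell Ranger 3.0, Seurat 4.0 and mm10, while the matrix headers name Cell Ranger 7.1.0. Receptor contig files were used for clonotype size alone, and the 4T1 tumors of the study were not analysed here. Each condition is 1 library of pooled tumors, so no test was run.

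Barcodes were kept and classed as stated with the results. Rows with the same symbol were summed. Shares, summed UMIs and CPM (UMIs scaled to the class total) were computed in Python 3.11.15 with numpy 2.4.6, scipy 1.17.1, pandas 2.3.3 and matplotlib 3.10.9. Intervals are Clopper-Pearson, exact Poisson and exact conditional, at 95%. A share of 0 allows 3 counts of the total. Ratios of all genes used 1 added UMI and at least 10 UMIs over both libraries, likeness used log2 of CPM plus 10, and thinning drew 1000 UMIs per barcode (alternatives 500 and 2000), leaving out shallower barcodes. No doublet caller was run. Barcodes meeting more than 1 of the T cell, macrophage and tumor rules were counted apart, and an alternative left out barcodes above 20000 UMIs. The ratios and their intervals were tried on simulated Poisson counts of class sums. These lack the clumping of UMIs in single barcodes, so they cannot show how the intervals hold for clumped genes.

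Named genes were the members, the 5 genes with the most similar pattern, the 10 genes highest in barcodes with at least 3 of 4 genes, and list members beyond 2-fold or used as examples. Members and lists were chosen with earlier results of these data known. Promoter windows came from RefSeq, GRCm38.p6.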

Additional observations from a re-analysis of the deposited data

Results flagged for a closer look

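The L-fuc to control ratio of Fscn1 CPM lay on opposite sides of 1 at day 7 and day 21 in 3 classes, and the difference between the days was not tested. In macrophage barcodes it was 0.526 at day 7 and 2.87 at day 21. In other Ptprc-positive barcodes it was 0.725 and 1.31, with 119 of the 272 UMIs of L-fuc day 21 in 1 barcode. In tumor barcodes it went the other way, at 1.22 and 0.835. Each ratio compares 1 library with 1 library.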

How the results depend on the processing

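No paired analysis was possible because each condition is 1 library of pooled tumors and every library carries the replicate number 1, and for the same reason no replicate could be left out. Of 1879 values recomputed under alternatives, 1455 moved by less than their counting interval or, for counts of genes, by less than 1.5 times. The shares of Ccl22 barcodes that held Ccr7, Fscn1 or Cacnb3 were among these under every alternative run. So was the day 7 ratio of Ccr4 in T cell barcodes, whose interval is wide (1.23 to 6.59). Shares of Ccl22 barcodes with Ccl17 or Ccr4 were not part of these alternatives.

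Ccr7 in T cell barcodes depended most on the class rule and the depth. Its share was 4.00% in control day 7 and 9.10% in L-fuc day 7 with T cells at 1 or more Cd3 UMIs, and 10.4% in control day 7 at 4 or more. Thinned to 500 UMIs it was 9.41%, 1.55%, 2.48% and 0% (day 0, control and L-fuc day 7, control day 21), thinned to 1000 it was 18.9%, 3.05%, 3.21% and 1.89%, and thinned to 2000 it was 31.2%, 4.49% and 5.46% in the first 3. Its day 7 ratio was 2.85 and 1.45 at 1 and 4 Cd3 UMIs, 1.53 with macrophages at 20 or more C1q UMIs, and 0.996, on the other side of 1, without barcodes of at least 10 Ccr7 UMIs, a choice made on the gene's own value. The day 0 shares by clonotype were 24.9% and 2.82% thinned, and the L-fuc day 7 share of Ccr4 in Foxp3 barcodes was 2.73%.

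The day 21 macrophage ratio of Ccl22 was 1.72 with macrophages at 5 or more C1q UMIs and 1.85 without barcodes above 20000 UMIs, against 0.558, so its direction depended on the setting. For Fscn1 in macrophages the day 7 ratio was 0.302 without barcodes above 20000 UMIs, 0.613 with median of ratios scaling and 0.446 without barcodes of at least 10 Fscn1 UMIs, and the day 21 ratio was 4.88 at 5 C1q UMIs and 5.04 without deep barcodes. In tumor barcodes it was 1.18, 1.25 and 1.08 at day 7 under those 3 settings and 0.927 at day 21 without deep barcodes. In other Ptprc-positive barcodes at day 21 the Fscn1 ratio turned to 0.734 at 5 C1q UMIs and 0.959 without the richest barcode, and that of Cacnb3 to 0.501 at 5 C1q UMIs and 0.680 without deep barcodes.

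At day 7, with at least 30 UMIs, 0 members were lower in T cell barcodes, 0 were higher in other Ptprc-positive barcodes, and 1 and 0 mature dendritic cell genes were lower in these classes. With median of ratios scaling, 2 members were higher and 0 lower in T cell barcodes, 1 was higher in macrophage and 2 in other Ptprc-positive barcodes, and the mature dendritic cell counts were 8 higher and 0 lower in T cell and 9 higher and 1 lower in macrophage barcodes. The causes were not tested. Leaving out single barcodes, barcodes rich in a member and shared barcodes were alternatives chosen after seeing the data. The depth of the day 21 T cell class, 54 and 34 barcodes, limits every value there.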

Other observations

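Ligand and receptor genes of the Ccr7 axis could be followed on 1 side only. Ccr7 was counted in every library, while its ligand genes Ccl19 and Ccl21a reached at most 1 UMI in any T cell, macrophage or other Ptprc-positive class of a library at days 7 and 21.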
